A study of Mus musculus with 134 samples.

Results

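The genes described here are 52 developmental transcription factor genes outside the Hox clusters, called members below and taken by name from a list and not by any measured value. They are 7 paired box genes, 9 LIM homeobox genes, 5 neural bHLH genes, 2 bHLH-PAS genes, 4 NK homeobox genes, 2 genes of the Six2 family, 6 Dlx and Msx genes, 4 Emx and En genes, 2 GATA genes, 4 T-box genes, 5 forkhead genes and 2 Sox genes. Each of the 52 is among the 25209 genes of every bulk count table. Of the single-cell tables, the H3K27me3 one lists 42 of them among 17622 genes and the H3K4me3 one 32 among 17142 genes.

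SET-seq reads the transcriptome from the cytoplasm and the epigenome from the nucleus of the same cells, and only its RNA libraries were analysed here. Every library came from E14, a mouse embryonic stem cell (mESC) line of the 129/Ola strain grown with serum and LIF, and the bulk cells were labelled as untreated. The 54 bulk libraries form 27 conditions with 2 libraries each. The 4 Aebp2 KO libraries, labelled H3K27me3, come from KO1 and KO2, which are 2 CRISPR/Cas9 clones made with different guides and thus 1 clone per guide. The 50 wild-type libraries were placed in 8 groups: SET-seq with an H3K27me3 antibody (6 libraries), with an H3K4me3 antibody (6), without antibody (8), tagmentation of purified RNA in vitro at 16 °C (8), at 37 °C (8), with 3 amounts of Tn5 (6), with 3 amounts of RNA (6), and ligation-based RNA-seq (2). The study describes its repeats of each KO line as independent experiments and its in vitro libraries of each temperature and time as biologically independent. The labels give no number of cells for the KO libraries and name no separate cultures, and p-values measure the spread between these libraries only. The 752 single cells were grown with Wnt3a-coated beads and picked as daughters proximal or distal to the bead.

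These factors specify lineages that stem cells do not yet belong to, such as neural tube, heart, limb, kidney or blood. In mESCs the promoters of many such genes carry H3K27me3, the mark written by Polycomb repressive complex 2 (PRC2), often together with H3K4me3, and the genes are kept at low output until differentiation. EZH2, EED and SUZ12 form the core of PRC2, and AEBP2 and JARID2 are accessory subunits that help it act on chromatin, while PRC1 ubiquitylates histone H2A at the same places. Promoters of this kind are usually rich in CpG.

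The promoters of 3 members are shown. Nkx6-2 was chosen because it was lower in the KO libraries in every comparison. Gata3 and Six2 were chosen for higher values there in some comparisons. Those values rest on few counts and in part on the filter, as given below, and neither gene was called against H3K27me3 SET-seq. The 250 bases before the gene start are from RefSeq's table for GRCm38.p6, a later build than the mm9 of the count files, with every CG in capitals. All 3 genes lie on the minus strand, and the windows are chr7:139582798-139583047 for Nkx6-2, chr2:9878601-9878850 for Gata3 and chr17:85688255-85688504 for Six2.
Nkx6-2: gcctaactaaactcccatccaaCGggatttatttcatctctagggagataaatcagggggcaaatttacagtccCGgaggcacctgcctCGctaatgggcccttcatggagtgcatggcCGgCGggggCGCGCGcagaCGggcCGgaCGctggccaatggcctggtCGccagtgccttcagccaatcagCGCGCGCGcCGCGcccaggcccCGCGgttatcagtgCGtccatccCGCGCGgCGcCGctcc
Gata3: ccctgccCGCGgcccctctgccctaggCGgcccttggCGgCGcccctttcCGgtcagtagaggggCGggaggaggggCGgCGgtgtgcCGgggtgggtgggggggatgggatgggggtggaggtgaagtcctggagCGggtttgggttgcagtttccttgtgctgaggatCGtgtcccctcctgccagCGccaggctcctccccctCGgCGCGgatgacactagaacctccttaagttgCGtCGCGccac
Six2: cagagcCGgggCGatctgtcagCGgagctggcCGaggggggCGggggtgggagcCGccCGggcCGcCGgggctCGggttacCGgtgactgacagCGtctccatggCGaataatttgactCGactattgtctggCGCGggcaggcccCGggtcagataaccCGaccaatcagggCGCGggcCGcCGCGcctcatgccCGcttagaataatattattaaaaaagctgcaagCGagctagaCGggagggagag

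Nkx6-2 and Six2 hold 26 CG each in this window and Gata3 holds 19. For 39 of the 52 members the table gave 47 windows, with a median of 20 CG (4 to 33), against a median of 6 over 32841 windows of 27018 genes. At least 20 CG were found in 51.1% of the members' windows and in 17.95% of all windows. The letters TATAAA were found on either strand in 8.51% of the members' windows, against 12.4% of all, and CCAAT in 44.7% against 33.9%. Members without a CpG-rich window exist too, since Lhx8 and Lhx9, LIM factors of cholinergic neurons and of the gonad, hold 4 CG each. These are counts of letters and say nothing on the binding of a factor.

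The libraries differ in depth and in a few other respects that touch the results below. Without Rn45s, the precursor rRNA gene, they held 188275 to 16888686 counts, and the KO libraries 935126 to 1124026, with 48.8% to 56.7% of their total on Rn45s. Aebp2 was at 15.7 and 15.0 counts per 1000000 counts (CPM) in KO1 and 49.7 and 30.2 in KO2, against a median of 60.6 in wild type. It ran from 34.7 to 76.0 CPM in H3K27me3 SET-seq, a range that holds KO2 replicate 1. Without antibody it ran from 0 to 52.2 CPM, a range that holds all KO libraries. The counts cover all exons, so they do not measure the edited site. Hprt, a purine salvage gene that is inactivated in the E14TG2a line, was at 0 to 2.14 CPM in the KO libraries and 0 to 1.29 in the in vitro ones, but at 66.2 to 485 in SET-seq and at 184 and 181 in the ligation-based libraries. A difference between KO and the SET-seq or ligation groups cannot be told apart from one that goes with Hprt. The summed CPM of 8 pluripotency markers was 3505 to 4059 in KO and 5090 to 5571 in H3K27me3 SET-seq, and 6 neuron and glia markers summed to 91.5 to 175 and 123 to 192, with Dcx at 0 in both. The sums of 8 primitive endoderm markers were 38.5 to 68.6 and 34.1 to 73.6, those of 5 mesendoderm markers 39.1 to 47.7 and 17.2 to 33.9, and those of 6 fibroblast markers 1.78 to 15.7 and 0.846 to 13.8, with Lum at 0 in both. The in vitro and ligation-based libraries differed from KO in some of these lists. Primitive endoderm markers summed to 293 to 341 at 16 °C, 243 to 292 at 37 °C, 255 to 567.8 with the Tn5 amounts, 139 to 310 with the RNA amounts and 292 to 295 with ligation, all above KO. Mesendoderm markers summed to 60.7 to 119 in vitro and 50.1 to 52.2 with ligation, also above KO, and neuron and glia markers to 38.4 to 93.6 at 16 °C, at 37 °C and with the Tn5 amounts. The part of these markers in the results was not tested. In bulk libraries, fewer cells that use a gene and less RNA per cell cannot be told apart.

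Most members were in the lower middle of the expression range in wild-type mESCs. By level per length the median member was above 41.0% of genes, 38 of the 52 lay between the 25th and 50th percentiles, 10 above and 4 below. Averaged over the 8 wild-type groups with equal weight, the median member had 0.137 reads per kilobase per 1000000 counts (RPKM), against 0.466 for all genes. Only 6 of 52 members (11.5%) were over 1 RPKM, against 44.7% of genes. Nkx6-2, a factor of the ventral neural tube and of oligodendrocytes, led with 26.2 RPKM, which is above 87.7% of genes. Msx2, a factor of skull and ectodermal organs, followed with 7.64, Gata2, a factor of blood stem cells and trophoblast, with 3.51, and En2, a factor of the midbrain-hindbrain boundary, with 1.94. Sox1 of the neural plate had 1.23 and Lhx6 of cortical interneurons 1.02. The 4 next were Gata3 (0.909), Neurod1 (0.826), Nkx2-5 (0.740) and Lhx2 (0.697), and at the other end Emx2 had 0.0196 and Sim1 0.0124 RPKM. Neighbours in this order from Gata3 downward had group ranges that overlap widely, for example 0.0745 to 1.97 for Gata3 and 0.0569 to 2.03 for Neurod1.

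By family, the median level ran from 0.0338 RPKM for the bHLH-PAS genes and 0.0572 for Six2 and Six3 to 0.407 for the NK genes and 2.21 for the GATA genes. The 9 LIM genes had a median of 0.104 and the 7 paired box genes of 0.0872. Several families held one gene well above their median, as Nkx6-2 among NK genes, Msx2 among Dlx and Msx genes, Lhx6 among LIM genes and Pax8, a thyroid and kidney factor, at 0.298 among paired box genes, whereas the 4 T-box genes lay close together at 0.144 to 0.279. Members that neighbour each other on a chromosome had unlike levels in some pairs. Olig1 had 0.389 RPKM and Olig2, which is 41091 bases away on mm9, 0.0365. Foxc2 had 0.273 and Foxf1 0.0379, while both Six3 and Six2 were low with 0.0652 and 0.0491. The exons of 7 members overlap another gene on the opposite strand, where reads could not be counted for either: Msx1 over 58.9% of its exon bases, Dlx1 over 38.0%, Pax6 over 22.9%, Nkx6-2 over 12.9%, Nkx2-2 over 11.4%, Dlx6 over 9.71% and Pax9 over 4.36%. The counting was not strand-specific.

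The same members dominated in each wild-type group. Nkx6-2 took the largest share of the members' counts in all 8 groups, from 23.6% at 16 °C to 62.7% with the Tn5 amounts. Msx2 or Gata2 came next except in the ligation-based libraries, where it was Sox1 with 9.96%. In the KO libraries Msx2 led with 28.4% of 436 counts, followed by En2 with 7.11% and Gata3 with 6.65%. Without Nkx6-2, the members summed to 123, 101, 127 and 75.6 CPM in the 4 KO libraries and to 54.7 to 108 in H3K27me3 SET-seq. The range over all 50 wild-type libraries was 16.9 to 116, so KO1 replicate 1 and KO2 replicate 1 lay above it and the other 2 KO libraries inside it.

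**Figure D1:**
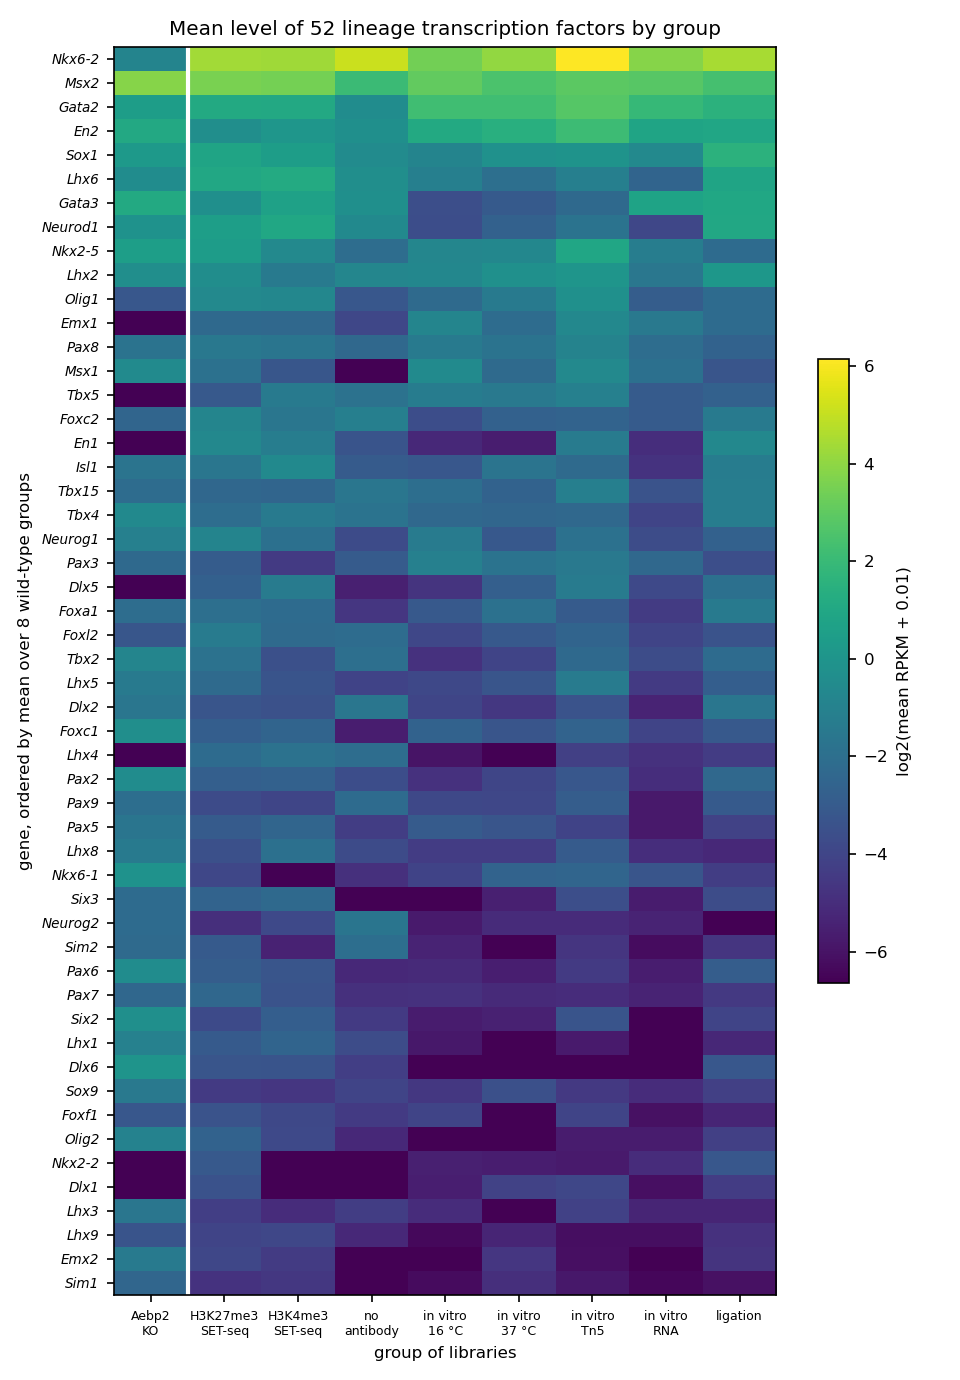
Mean level of each of the 52 genes in the Aebp2 KO libraries (left column) and the 8 wild-type groups, as log2 of the mean RPKM with a pseudocount of 0.01, with genes ordered by their wild-type mean. Nkx6-2 (26.2 RPKM on average) is the brightest row in every wild-type column and much darker in the KO column. The genes below the first 10 rows have wild-type means of 0.389 RPKM or less.

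Detection went with depth and with the kind of library. With at least 1 count taken as detected, 1 to 49 members were found per wild-type library, with a median of 30.5 over the 50. The ligation-based libraries, with 14065944 and 13906615 counts, found 49 and 46 of the 52. The 10-cell SET-seq library of 188275 counts and the 1000-cell one of 195539 counts found 5 each. Libraries of like depth could differ widely, as SET-seq of 10 cells found 9 members with 3693999 counts and the deeper of the 30 pg libraries 3 with 2743951, while H3K27me3 SET-seq of 10000 cells found 48 with 3330413. No member was seen in all 54 libraries, and the rarest, Dlx6, a factor of craniofacial skeleton and limb, was seen in 7. The median member was seen in 30 libraries, against 39 for the median gene.

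In the KO libraries 38 members were detected in KO1 replicate 1, 29 in KO1 replicate 2, 29 in KO2 replicate 1 and 17 in KO2 replicate 2. Of these, 17, 7, 5 and 9 rested on a single count. KO2 replicate 2 stood apart from the other 3, as it also had 12624 genes in all against 15060 to 15625. At the depth of the shallowest library, 188275 counts, the expected number of members was 14.0, 12.4, 14.1 and 6.41 in the KO libraries and 1.00 to 12.9 in wild type. So 2 of the 4 KO libraries were above every wild-type library at equal depth, and the other 2 were inside the wild-type range. For all genes the expected numbers were 9986 to 11434 in KO and 5828 to 11604.5 in wild type, which overlap. At 1000000 counts, which 3 KO libraries reach, the expected members were 37.7, 29.0 and 15.99 against 3.00 to 32.8. Counting only genes with at least 5 counts, 3 to 8 members were found in the KO libraries. No test was made of these numbers.

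**Figure D2:**
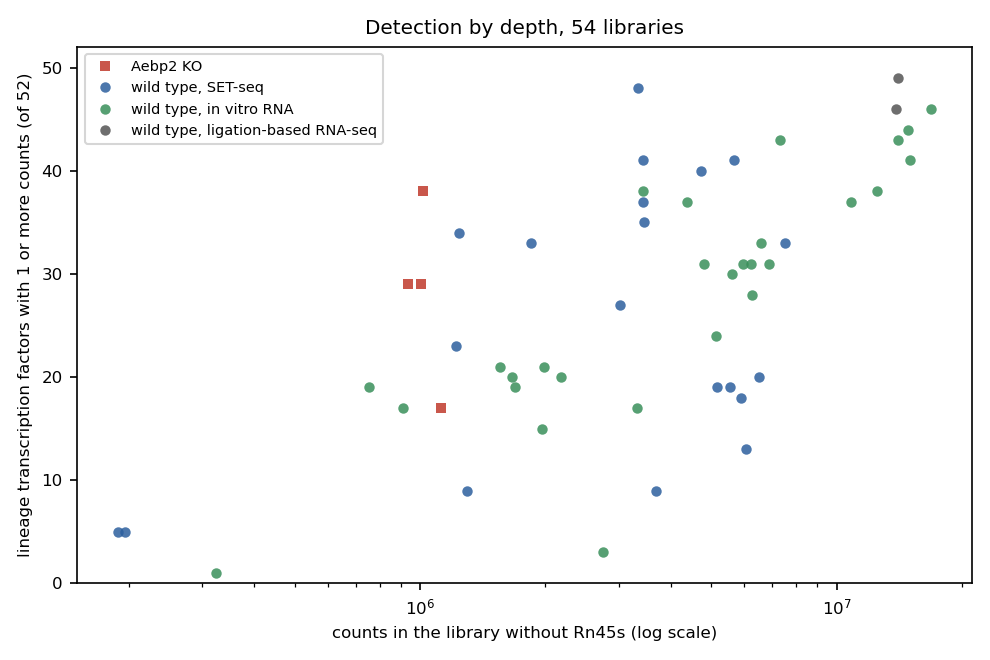
Number of the 52 genes with at least 1 count in each of 54 bulk libraries against the counts outside Rn45s on a log axis, with KO libraries as squares and wild-type libraries as circles coloured by method. Detection is higher in deeper libraries, from 5 genes near 200000 counts to 49 at 14065944, and 3 of the 4 KO squares (38, 29 and 29 genes) lie high for their depth.

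The Aebp2 KO libraries were tested against each of the 8 wild-type groups and against all of them together. The labels name no wild-type library made together with the KO libraries. Genotype thus cannot be told apart from other differences between the sets of libraries. Among these is the share on Rn45s, 48.8% to 56.7% in KO and 21.9% to 29.7% in H3K27me3 SET-seq. The 8 comparisons share the 4 KO libraries and are not independent of each other. The closest match in method was H3K27me3 SET-seq, where Nkx6-2 was the 1 member called. There, 6 members passed the filter on low counts and 1 was called at an adjusted p below 0.05 in edgeR's quasi-likelihood test, while 47% of the 10495 genes tested were called. That 1 member was lower, as were 24.5% of genes, and none was higher, against 22.5% of genes. The 6 members had a median log2 fold change of -0.58, against -0.02 for all genes. The filter demands about 10 counts at the median depth in enough libraries, so 46 members were not tested here, and those that passed are not a fair sample of the 52.

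Nkx6-2 was nearly lost from the KO libraries. On mm9 the gene lies at chr7:146765275-146768696. Its level was 0.981 and 2.14 CPM in KO1 and 0.994 and 0 in KO2, that is 1, 2, 1 and 0 counts. H3K27me3 SET-seq had 26.8 at the lowest, 37.7 at the median and 54.8 at the highest, so every wild-type library of that group was above every KO library. The fall was 36.4-fold, or -5.19 on the log2 scale (standard error 0.47, adjusted p = 1.14e-07). The intervals of the clones overlap, with 1.54 CPM in KO1 (3 counts, exact 95% interval 0.317 to 4.49) and 0.469 in KO2 (1 count, 0.0119 to 2.62).

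The other wild-type groups gave the same order. H3K4me3 SET-seq had 32.1, 37.3 and 51.5 CPM (lowest, median, highest) and SET-seq without antibody 49.5, 62.9 and 100.9. The in vitro libraries had 17.0, 19.1 and 28.4 at 16 °C, 25.2, 32.5 and 36.7 at 37 °C, and 100.15, 135 and 177 with the Tn5 amounts. The RNA amounts gave 0, 28.5 and 49.3, and the ligation-based libraries 42.5 and 41.1. Only 1 of 50 wild-type libraries, of 30 pg RNA with 323449 counts, was not above all KO libraries.

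**Figure D3:**
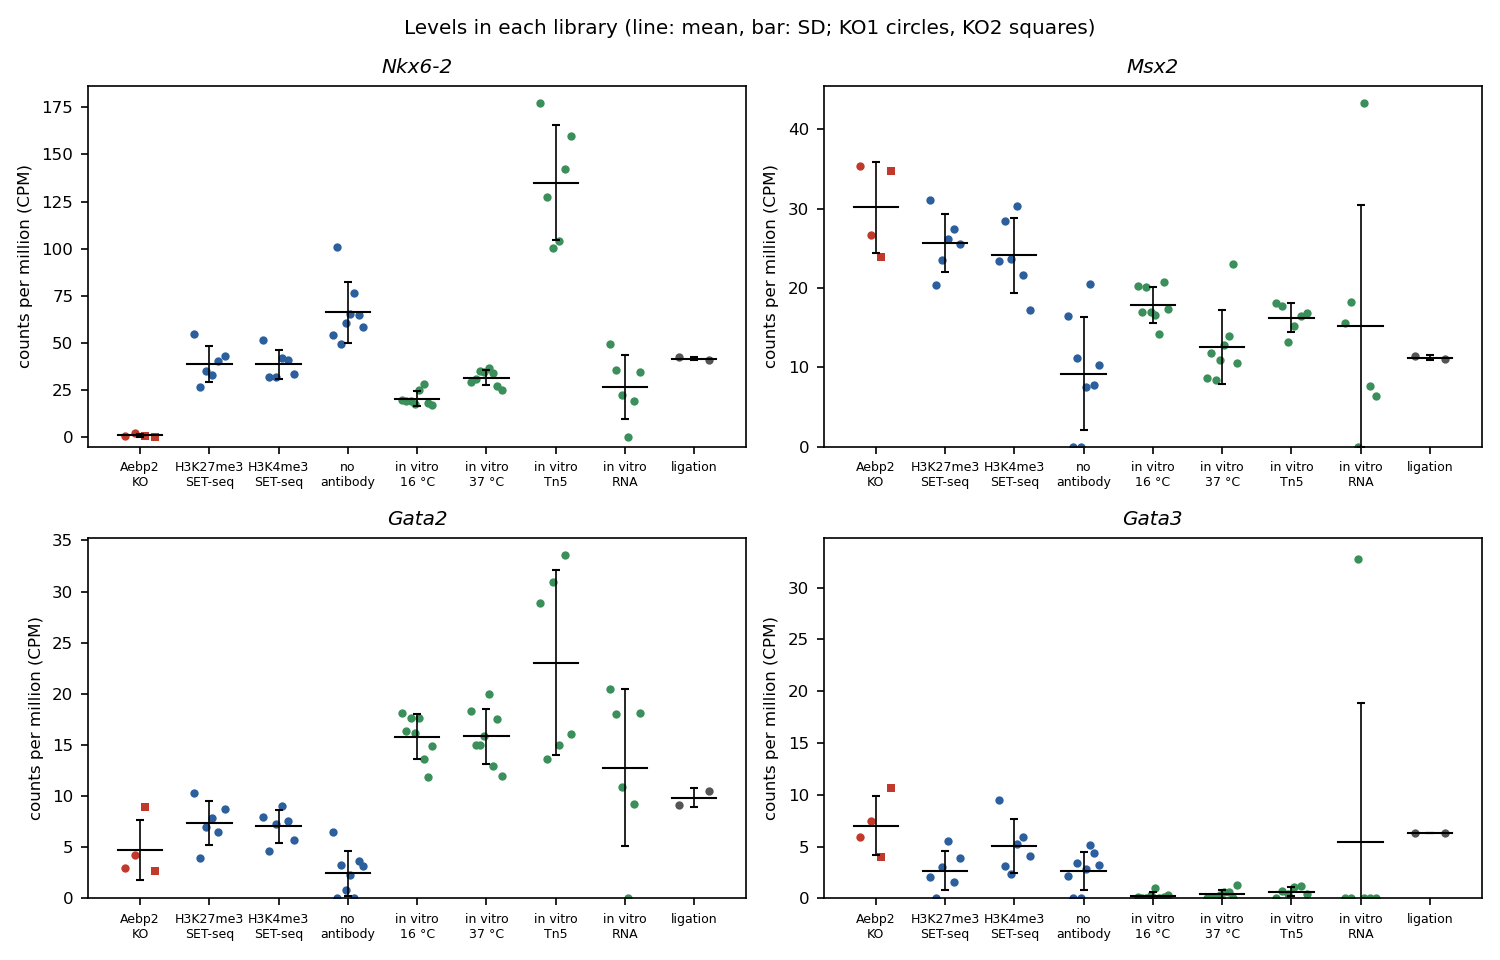
CPM of Nkx6-2, Msx2, Gata2 and Gata3 in each bulk library by group, with KO1 as red circles, KO2 as red squares, wild-type SET-seq in blue, in vitro libraries in green and ligation-based ones in grey; the line is the mean and the bar the SD. Nkx6-2 stays at 0 to 2.14 CPM in KO and is between 17.0 and 177 in all wild-type libraries but one, while the other genes overlap between KO and some of the groups.

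Nkx6-2 was called lower in all 8 comparisons, with log2 fold changes from -4.29 (standard error 0.45, 16 °C) to -7.15 (0.41, Tn5 amounts), that is 19.6-fold to 142-fold. Among the 8673 genes tested in all 8, 1.13% were lower in all 8 and 2.57% were higher in all 8. Nkx6-2 reached the filter through wild-type libraries alone, as it had hardly any counts in KO. Without the filter it was also called lower in all 8, with log2 fold changes of -4.51 to -7.30. It was 1 of 8 genes that were called lower and had a log2 fold change below -3 in each of the 8. The in vitro groups hold almost no Hprt, like the KO libraries, but differ from them in method and in the markers given above. There the adjusted p in edgeR ran from 2.74e-11 at 37 °C to 0.011 for the RNA amounts. These p-values carry the selection by the filter, and the part of Hprt was not tested. Inpp5a, the phosphatase gene whose exons overlap part of Nkx6-2 on the opposite strand, had 6.23 to 17.9 CPM in KO and group medians of 12.9 to 31.7 in wild type. In the RNA amounts the call ended with either clone alone (adjusted p 0.189 for KO1 and 0.146 for KO2), with log2 fold changes of -4.20 and -5.72.

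Msx2, at chr13:53562250-53568149 on mm9, was the most abundant member in the KO libraries, with 35.3 and 26.7 CPM in KO1 and 23.9 and 34.7 in KO2. H3K27me3 SET-seq had 20.3, 25.8 and 31.1 (lowest, median, highest) and H3K4me3 SET-seq 17.2, 23.5 and 30.4, so KO overlapped both. The differences, log2 0.30 (standard error 0.23, adjusted p = 0.298) and 0.35 (0.24, 0.227), did not pass edgeR's test. All 4 KO libraries were above those at 16 °C (14.2 to 20.8), at 37 °C (8.41 to 23.1), with the Tn5 amounts (13.2 to 18.1), without antibody (0 to 20.5) and with ligation (11.4 and 11.002). Msx2 was called higher there, with log2 fold changes of 0.75, 1.39, 0.82, 1.62 and 1.72 and adjusted p from 4.65e-06 to 0.029. Against the RNA amounts, which ran from 0 to 43.3 CPM, it was 1.17 (standard error 0.87, adjusted p = 0.43). The call without antibody did not hold without KO1 replicate 1 (adjusted p 0.083), KO1 replicate 2 (0.057) or KO2 replicate 2 (0.085). Between KO1 and KO2 the log2 difference of Msx2 was -0.02 (standard error 0.35, adjusted p = 0.984).

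The 2 GATA factors lay on opposite sides of the in vitro libraries at 16 °C, at 37 °C and with the Tn5 amounts. Gata2 (chr6:88143885-88157026 on mm9) was at 2.94 and 4.28 CPM in KO1 and 8.95 and 2.67 in KO2, against 11.9 to 18.1 at 16 °C, 11.9 to 19.9 at 37 °C and 13.7 to 33.6 with the Tn5 amounts, with no overlap. It was called lower there by log2 -1.75 (standard error 0.31), -1.68 (0.31) and -2.32 (0.42). At 37 °C it reached the filter through wild-type libraries, where it is high, and in only 1 KO library. The value at 37 °C is thus given as a description. The SET-seq groups with antibody had 3.97 to 10.3 and 4.64 to 9.05 CPM, which overlap the KO libraries, and the differences of -0.60 (adjusted p = 0.386) and -0.54 (0.362) did not pass edgeR's test. Against the RNA amounts (0 to 20.5 CPM) it was -1.50 (standard error 0.87, adjusted p = 0.292). The wild-type ranges of SET-seq with antibody and of the 3 in vitro groups below which KO lay did not overlap either. Primitive endoderm and mesendoderm markers were also higher in these in vitro groups than in KO.

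Gata3 (chr2:9778705-9800227 on mm9), a factor of T cells, trophoblast and kidney duct, was at 5.89, 7.49, 3.98 and 10.7 CPM in the KO libraries, from 6, 7, 4 and 12 counts. It lay at 0 to 1.01 CPM at 16 °C, 0 to 1.33 at 37 °C and 0 to 1.14 with the Tn5 amounts, all below KO. With the RNA amounts the median was 0, but 1 library of 30 pg was at 32.8 CPM, above every KO library. Gata3 reached the filter at 16 °C and with the Tn5 amounts only through the KO libraries, where it had to be higher, so the log2 differences of 4.95 (standard error 0.57) and 3.27 (0.52) are given as a description. It did not reach the filter at 16 °C without any one of the 6 libraries of 5, 10 or 15 min, nor in either group with Rn45s kept. H3K27me3 SET-seq had 0, 2.504 and 5.52 CPM and H3K4me3 SET-seq 2.34, 4.68 and 9.54, and the ligation-based libraries 6.33 each. These overlap with KO or lie within its range. The test against H3K27me3 SET-seq gave log2 1.47 (standard error 0.78, adjusted p = 0.135), with the filter reached in 3 KO libraries and 1 of wild type, and in the other 5 comparisons Gata3 did not pass the filter.

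Another 3 members of the upper range were called once or not at all. Lhx6 and Sox1 reached the filter in the comparisons that called them through wild-type libraries alone, where they are high. Their adjusted p-values there carry this selection. Lhx6 was at 1.96, 1.07, 2.98 and 5.34 CPM in KO, just below the H3K4me3 SET-seq libraries at 5.40, 7.86 and 14.1. It was lower by log2 -1.49 (standard error 0.54, adjusted p = 0.025), and this did not hold without KO1 replicate 1 (0.087), KO1 replicate 2 (0.094) or KO2 replicate 1 (0.059). Without any one of 5 of the 6 H3K4me3 libraries, all but 10000 cells replicate 2, Lhx6 did not reach the filter. Against H3K27me3 SET-seq (3.89, 7.56 and 13.2) it was -1.32 (0.61, 0.082) and passed without KO2 replicate 2. Sox1 was at 5.89, 6.42, 5.96 and 0.890 CPM against 12.4 and 11.6 with ligation, lower by log2 -1.08 (standard error 0.40, adjusted p = 0.039), which did not hold without any one of KO1 replicate 1, KO2 replicate 1, KO2 replicate 2 or either ligation library (0.056 to 0.352), or with the replicate number as a block (0.107). En2 was at 2.94 and 3.21 CPM in KO1 and 16.9 and 7.12 in KO2, and the largest of its differences, -1.04 from the Tn5 amounts (standard error 0.44, adjusted p = 0.050), was just over the threshold. This call depended on the setting. The Tn5 libraries of the same replicate number deviate together, and with that number as a block the change was -1.06 (standard error 0.36, adjusted p = 0.016), while a level per clone and condition gave an adjusted p of 0.014. Without KO1 replicate 1 it was -0.74 (adjusted p = 0.178), and over all alternatives the adjusted p ran from 0.0043 with KO1 alone to 0.508 with KO2 alone.

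**Figure D4:**
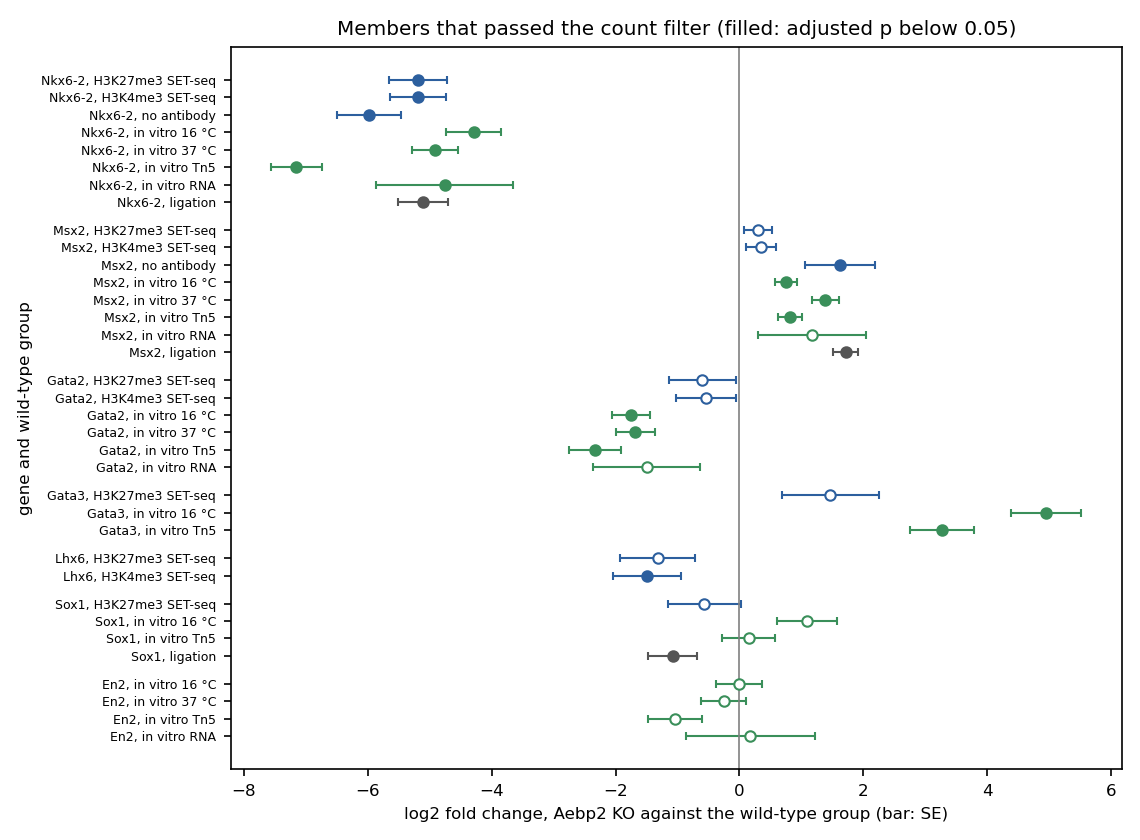
Log2 fold change of Aebp2 KO against each wild-type group, with its standard error, for the 7 genes with the highest wild-type levels, where they passed the filter; filled points have an adjusted p below 0.05. Nkx6-2 is left of -4 in all 8 comparisons, Msx2 is right of 0 in all 8, Gata2 is left of 0 in its 6, and the changes against H3K27me3 SET-seq are open except that of Nkx6-2; the filled points of Gata3 (16 °C and Tn5 amounts) reached the filter through KO alone and are a description.

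The number of members called must be read against a high background. Against the Tn5 amounts 4 of 8 members tested were called (63.7% of genes), at 16 °C 4 of 6 (66.8%), at 37 °C 3 of 4 (68%) and with the RNA amounts 1 of 4 (12.8%). Without antibody it was 2 of 2 (40.2%), with ligation 3 of 3 (54.1%) and against H3K4me3 SET-seq 2 of 4 (52.7%). In the comparisons with Tn5 amounts and 16 °C, 2 members each were higher (29.5% and 32% of genes) and 2 lower (34.2% and 34.9%). At 37 °C 1 was higher and 2 were lower (34.4% and 33.5%), without antibody 1 and 1 (20.3% and 19.9%), with ligation 1 and 2 (26.8% and 27.3%), with H3K4me3 SET-seq 0 and 2 (25.6% and 27.1%) and with the RNA amounts 0 and 1 (6.11% and 6.65%). The shares of members lay below that of genes for H3K27me3 SET-seq (16.7%), the Tn5 amounts (50%), H3K4me3 SET-seq (50%) and, barely, 16 °C (66.7%). They lay above it with the RNA amounts (25%), at 37 °C (75%), and without antibody and with ligation, where all of the 2 or 3 tested were called. With so few members tested nothing is read from these shares. Of the calls at 16 °C and with the Tn5 amounts, that of Gata3 rests on the filter as described. Nkx6-2 in every comparison, Gata2 at 37 °C, Sox1 with ligation and Lhx6 with H3K4me3 SET-seq reached it through wild-type libraries alone. Without KO2 replicate 2, 10 of 16 members were called at 16 °C (63.6% of genes) and 7 of 11 with the Tn5 amounts (60.1%).

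Against all wild-type groups together, each weighted equally, 22 members passed the filter and 11 were called (35.9% of 14115 genes). Of these, 8 were higher (21.3% of genes) and 3 were lower (14.6%). The lower ones were Nkx6-2 (-5.39, standard error 0.49), Gata2 (-1.15, 0.42) and Tbx5, and the higher ones Msx2 (0.99, 0.35), Gata3 (2.07, 0.73), Lhx1, Pax2, Pax5, Pax6, Six2 and Tbx2. Wild type includes the in vitro libraries, which are low in several of these genes. Of the 8 higher members, 5 (Pax2, Pax6, Lhx1, Six2 and Tbx2) would not have reached the filter on wild-type libraries alone, and were tested because of their counts in KO. Their values are given as a description with no p, and nothing on the 52 is read from the count. Of the 14 members that wild-type libraries alone would have passed, 6 were called, and of these Nkx6-2 and Tbx5 reached the filter in no KO library.

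Pax6, a factor of eye, forebrain and pancreas, had 3, 4, 7 and 0 counts in the KO libraries, that is 2.94, 4.28, 6.96 and 0 CPM. In wild type it had 52 counts in 22 of 50 libraries, and the highest library was at 1.20 CPM. The 3 libraries other than KO2 replicate 2 were thus above all of wild type. The fitted log2 fold change was 4.11 (standard error 0.71).

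Six2, a factor of nephron progenitors, had 3 and 4 counts in KO1 replicate 1 and KO2 replicate 1 and none in the other 2, or 2.94 and 3.98 CPM, against at most 0.876 CPM in wild type. Its fitted log2 fold change was 4.22 (standard error 0.82), and it did not reach the filter without either of these 2 libraries. Lhx1, a factor of head organizer and kidney, had 4 counts in the same 2 libraries and none in the others, and 40 counts in 13 wild-type libraries. It differed by log2 4.14 (0.91). Both members thus rest on 1 library of each clone.

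Pax2, a factor of kidney, optic stalk and midbrain, had 3, 3, 7 and 0 counts and differed by log2 3.18 (standard error 0.79). Tbx2 of heart and limb had 5, 1, 2 and 0 counts and a change of 2.19 (0.85). Pax5, known from B cells and midbrain, had 1, 3, 6 and 0 counts. Reaching the filter in 2 wild-type as well as 2 KO libraries, it differed by log2 2.13 (0.82, adjusted p = 0.035 in edgeR). All 3 were at 0 in KO2 replicate 2 and highest in KO2 replicate 1 or KO1 replicate 1. The calls of Pax5, Gata3, Gata2 and Msx2 did not hold without some single KO libraries. Without KO2 replicate 1, the adjusted p was 0.439 for Pax5. Without KO1 replicate 2 it was 0.117 for Pax5, 0.056 for Gata3 and 0.081 for Gata2. Without KO2 replicate 2 it was 0.153 for Gata3, 0.160 for Msx2 and 0.074 for Gata2, and without KO1 replicate 1 0.077 for Msx2 and 0.125 for Gata2. Nkx6-2 passed without any one KO library.

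Tbx5, a factor of forelimb and heart, had no count in the 4 KO libraries and 345 counts in 40 of 50 wild-type libraries. With 3 counts over the 4 libraries as the floor, 0.735 CPM, it was at least 1.5-fold lower than the wild-type mean of 1.10 CPM. In H3K27me3 SET-seq, the closest match, its mean of 0.435 CPM was below the floor, so a fall was not detectable there. The adjusted p against all groups in edgeR was 0.040 and rose to 0.074 to 0.094 without any one KO library. The filter was reached in 2 wild-type libraries and in no KO library, so this p carries that selection. The other 6 members without a count in KO were Lhx4, Nkx2-2, Dlx1, Dlx5, Emx1 and En1. Their wild-type means over the 8 groups, 0.0809 to 0.694 CPM, were below the floor, so a fall from this average was not detectable at this depth. For En1 the average hides unlike groups. It ran from 0 to 3.23 CPM in H3K27me3 SET-seq, where the lowest value above 0 was 1.02. With ligation it was at 1.49 and 1.65 CPM. These values above 0 exceed the floor, whereas every library at 16 °C and at 37 °C was below it. En1 did not reach the filter against any of these groups.

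The remaining members with counts in KO had few. Olig1 (1 count), Foxl2 (1) and Isl1 (3) passed the filter but not the test, with log2 fold changes of -1.44 (standard error 1.43), -0.35 (1.56) and 0.43 (1.06). Tbx4 had 3, 3, 3 and 0 counts and a log2 fold change of 1.61 (0.71, adjusted p = 0.067), and Msx1 1, 4, 0 and 0 counts and 1.81 (0.88, 0.104). Nkx2-5 of the heart and Neurod1 of neurons and endocrine cells had 9 counts each and changes of 1.16 (0.73, 0.215) and 0.91 (0.72, 0.333). Lhx2, Lhx6, Sox1 and En2 had changes between 0.04 and 0.29 with adjusted p of 0.703 or more. Foxc1, a factor of paraxial mesoderm and eye, had 11 of its 13 KO counts in KO1 replicate 1 and did not pass the filter.

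When the filter was lowered to 1 count over the libraries compared, 51 to 52 members could be tested against most groups, and more of them were higher. At 16 °C 20 were higher and 3 lower (29.5% and 23.4% of genes), at 37 °C 21 and 3 of 51 (29.5% and 19.2%), and with the Tn5 amounts 14 and 6 (24.2% and 21.4%). Against all groups together 19 were higher and 3 lower (23.6% and 8.94%). Without antibody it was 8 and 1 of 50 (12.1% and 8.88%), with ligation 6 and 2 (14.6% and 18.5%), and with the RNA amounts 8 and 1 (9.22% and 5.23%). Against H3K4me3 SET-seq 1 was higher and 2 were lower of 50 (14.2% and 14.9%), and against H3K27me3 SET-seq 0 and 1 of 52 (10.6% and 12.9%). DESeq2 was run on all genes with a count. Genes to which it gave no adjusted p were counted as not called and stay in its shares of genes. It called 19 members with the Tn5 amounts (42.4% of genes), 3 with the RNA amounts (12.4%), 20 at 16 °C (43.9%) and 10 at 37 °C (37.9%). Without antibody it called 3 (22%), with ligation 5 (24.7%), with H3K4me3 SET-seq 4 (26.8%), with H3K27me3 SET-seq 2 (23.7%) and against all groups 9 (23.2%). With an unadjusted p below 0.05 and a log2 change over 1 in size as the rule, edgeR called 2 members against H3K27me3 SET-seq, Nkx6-2 and Lhx6, and 27.7% of genes. Without the filter, higher members outnumbered lower ones against every group but the 2 SET-seq groups with an antibody. Over all genes, too, more were higher than lower against the in vitro groups and without antibody, though not with ligation. Nothing particular to the members is read from this. These counts rest on genes with a few counts each.

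Between the clones, only Msx2 passed the filter, and it was not called, with 10% of 8551 genes called, 5.2% higher and 4.83% lower. With DESeq2 no member was called either (1.6% of genes), and Msx2 was not among the 2066 genes with an unadjusted p below 0.05. Summed counts were alike for some members and unlike for others. Pax6 had 7 counts in each clone, Gata3 13 in KO1 and 16 in KO2, and Msx2 61 and 63. Foxc1 had 11 and 2, Lhx6 3 and 9, Tbx2 6 and 2, Sox9 0 and 6 and Msx1 5 and 0. In all, 15 members had counts in 1 clone only, at most 6. En2, with 6 and 25, was the 1 member whose exact 95% intervals did not overlap (1.13 to 6.68 CPM in KO1 and 7.596 to 17.3 in KO2), which is a statement on counting error and not on the clones.

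Genes of the Polycomb complexes themselves were measured in the comparison of KO with H3K27me3 SET-seq. Of all genes tested there, 22.5% were called higher and 24.5% lower, and such a difference cannot be told apart from one that goes with Hprt. The counts below are to be read beside these shares. Of 12 PRC2 genes, 9 were tested, and Jarid2 (1.33) and Rbbp7 (0.97) were higher in log2 fold change. Aebp2 was lower (-0.88, standard error 0.31, adjusted p = 0.025 in edgeR), though KO2 replicate 1 lay inside the H3K27me3 SET-seq range. Of 19 PRC1 genes, all tested, 5 were higher and 3 lower, among them Kdm2b (1.64), Cbx6 (1.09), Pcgf1 (-1.37) and Cbx8 (-2.68). The medians, 0.21 for PRC2 and 0.05 for PRC1 genes, lie near the -0.02 of all genes. Of the 8 pluripotency genes 4 were lower, Klf4 by log2 -2.44, Tdgf1 by -0.86, Zfp42 by -0.72 and Nanog by -0.54, and none was higher. Eomes of the mesendoderm (2.18), Nes of neural progenitors (2.27) and Col4a1 (1.17) were higher, and Gsc (-2.27), Tubb3 (-1.01) and Lama1 (-1.53) were lower, while the 1 fibroblast marker tested was not called.

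In single cells the members were read in a different order than in bulk. Reads from introns as well as exons were counted there and no molecular identifiers were used, so the values are not counts of molecules, and exact 95% intervals cover counting error only. Cells needed over 1000 and under 5000 genes to pass, which left 545 of 752, 335 from H3K27me3 and 210 from H3K4me3 experiments. Only 96 barcodes occur, of which 80 are shared by several experiments, so a cell is a barcode within an experiment. A passing cell had reads on a median of 3 members (0 to 14). Of the 44 members listed in either table, 42 were read in a passing cell, 6 in more than 100 cells and 22 in 10 or fewer. The median was 11 cells per member against 29 per gene.

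Pax7, a factor of neural crest and muscle satellite cells, was read in 395 of 545 cells (72.5%, interval 68.5 to 76.2) and Pax5 in 376 (69.0%, 64.9 to 72.9). Isl1 of motor neurons and heart followed with 35.6%, Pax3 of neural crest with 29.5%, Tbx5 with 27.2%, Gata3 with 25.3% and Msx2 with 16.1%. Emx1 of the dorsal forebrain had 12.8%, Lhx2 6.97% and Lhx5 of the forebrain 6.06%. Nkx6-2, the leading member in bulk wild type, was read in 13 cells (2.39%, 1.28 to 4.04). Pax7, in turn, had 0.0504 RPKM in bulk. Across the 44 genes the number of cells had a Spearman correlation of 0.68 with the length of the introns and of 0.19 with the bulk RPKM, given as a description of genes that share cells and depth. The introns of Pax5 and Pax7 measure 177727 and 90613 bases, those of Nkx6-2 1515, and the bulk tables count exons alone.

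**Figure D5:**
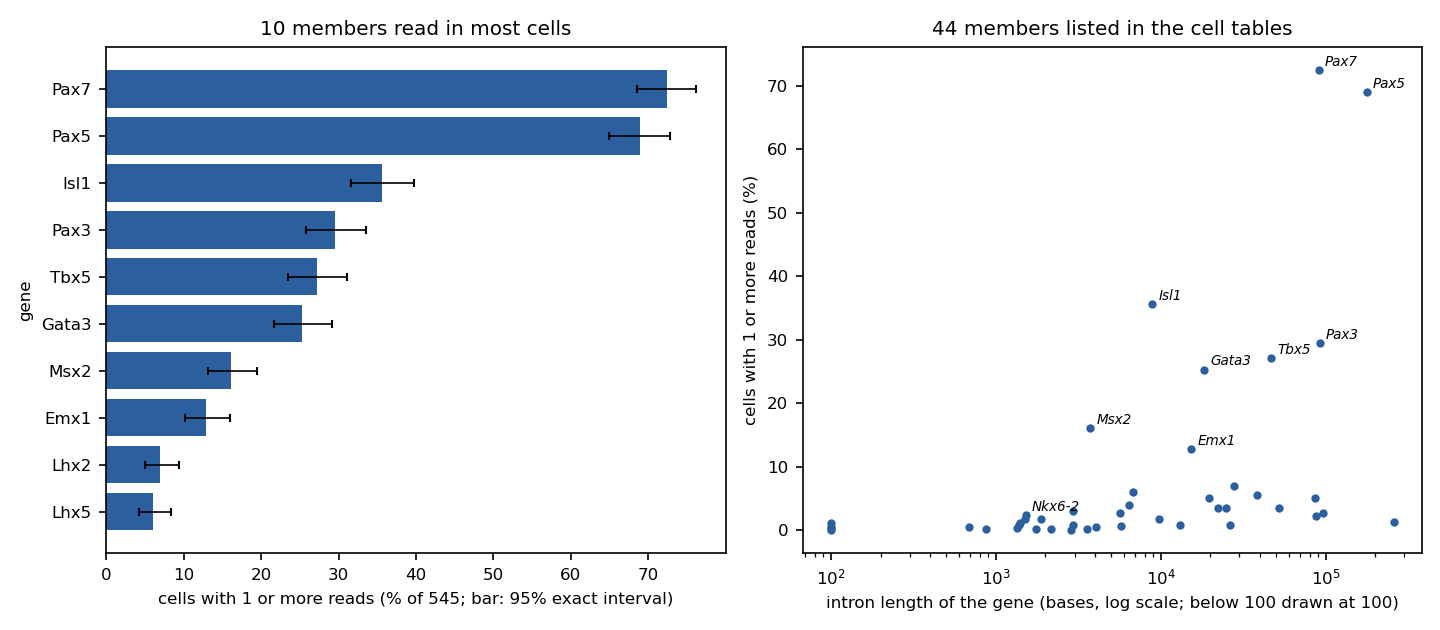
Left, share of the 545 passing cells with at least 1 read for the 10 genes read in most cells, with exact 95% intervals; right, the same share for the 44 genes listed in the cell tables against the summed intron length on a log axis, where genes below 100 bases are drawn at 100. Pax7 (72.5%) and Pax5 (69.0%), which have long introns, stand above all others, and Nkx6-2 is at 2.39%.

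The 2 kinds of experiment differed in which members were read. Pax7 was read in 86.3% of H3K27me3 and 50.5% of H3K4me3 cells and Pax5 in 84.5% and 44.3%. Isl1 was read in 57.3% and 0.952%, Pax3 in 47.8% and 0.476% and Gata3 in 38.5% and 4.29%. Lhx2 (4.18% and 11.4%), Lhx6 (2.09% and 10.0%), Sim1 of the hypothalamus (1.79% and 10.5%) and Nkx6-2 (0.896% and 4.76%) were read more often in the H3K4me3 cells. The antibody, the experiments and their depth cannot be told apart here, and no test was made. Within the H3K27me3 cells the median number of members was higher in deeper classes, from 1 under 50000 reads to 4, 6 and 8 in the classes from 50000, 200000 and 1000000 reads. In the H3K4me3 cells it was 2, 2, 1 and 1.5. By experiment the median was 0 to 11 members, the 11 being those of H3K27me3 experiments 1 and 2. More than 50% of the reads came from 1 cell for 18 of the 42 members read, of which 10 were read in 10 cells or fewer. Tbx15 stood at 710 of 765 reads, Lhx3 at 607 of 674, En1 at 754 of 1128 and Gata3, read in 138 cells, at 1115 of 1760.

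No member was called between proximal and distal daughters. After sums over at least 3 cells per experiment and position, 28 sums of 14 experiments entered edgeR with the experiment as a block, and Pax5, Pax7 and Tbx5 passed the filter. None was called, and 0% of 4842 genes were called, with 177 genes, Tbx5 among them, at an unadjusted p below 0.05. DESeq2 called 0.32% of genes and no member. Pax7 was read in 73.7% of 278 proximal and 71.2% of 267 distal cells (log2 fold change -0.31, standard error 0.54) and Pax5 in 69.4% and 68.5% (0.48, 0.54), both with an adjusted p of 0.997. Tbx5 was read in 31.3% and 22.8%, with a log2 fold change of 1.96 (0.88, unadjusted p = 0.037, adjusted p = 0.997 in edgeR). Its largest sums were 485 and 404 reads, in the proximal cells of H3K27me3 experiment 6 and H3K4me3 experiment 3, where the distal sums were 11 and 2. Without the filter En1, a factor of the midbrain-hindbrain boundary and limb, was called lower in proximal cells (log2 -5.38, standard error 1.33, adjusted p = 0.040), when 0.0772% of 18126 genes were called lower. It was read in 3 proximal and 14 distal cells, and 754 of its 1128 reads are from 1 cell.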

How the data were processed

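RNA from 54 bulk libraries and 752 single cells was analysed, and 64 genomic samples of the series' 134 were not used. The deposited bulk files hold raw read counts per gene, which the authors made with Trim Galore 0.6.4, STAR 2.5.4b on mm9 and featureCounts (2.0.1 for the KO files, 2.0.0 for the others) over RefSeq exons without strand. The deposited single-cell files hold read counts on exons and introns from zUMIs. Rn45s was removed before CPM and RPKM were computed, and detection meant a count of 1 or more. Differences were tested with edgeR 4.0.16 (quasi-likelihood, TMM, filterByExpr, Benjamini-Hochberg over all genes tested, adjusted p below 0.05), with DESeq2 1.42.0 as an alternative, in R 4.3.3. The all-group contrast set KO against the unweighted mean of 8 wild-type groups. Cell counts were summed per experiment and position over at least 3 cells that passed, and the positions follow the cell annotation of the study. Expected detection at a lower depth was computed without random draws. Promoter windows came from RefSeq (GRCm38.p6), where 39 members matched and 13 did not. Tests were tried on simulated counts with 200 changed genes. Python 3.11.15 with pandas 2.3.3, numpy 2.4.6, matplotlib 3.10.9 and scipy 1.17.1 served for the rest. Named were members called in any KO comparison, the 10 highest by RPKM, the 10 read in most cells, and called genes of the marker and Polycomb lists; Lhx8, Lhx9, neighbouring pairs, and members with few KO counts, unlike counts in the clones or unlike shares of cells were chosen after their values were seen. The members and lists were chosen with earlier results of these data known. Intervals and floors cover counting error only. No value columns besides those of these samples were found (0).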

Additional observations from a re-analysis of the deposited data

Results flagged for a closer look

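In 5 of 81 groups of 4 to 8 libraries (6.17%) over 17 members, 1 library lay far from the others by Dixon's criterion, which chance alone meets in about 1 group of 20. Sox1 was at 0.890 CPM in KO2 replicate 2, where the median of the KO libraries was 5.93, and this library also had the fewest genes detected of the 4. Lhx6 was at 2.68 CPM in the library of 16 °C, 5 min, replicate 1, against a group median of 1.67. Gata3 was at 1.01 CPM at 16 °C, 30 min, replicate 1, against a median of 0.156, and at 32.8 CPM in the 30 pg library replicate 1, where the median of the RNA amounts was 0. Msx2 was at 23.1 CPM at 37 °C, 5 min, replicate 1, against a median of 11.4. The causes were not tested.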

How the results depend on the processing

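For 31 single-gene results, 535 alternatives were run. They include results that wild-type libraries alone would not have passed through the filter. These are Gata3 at 16 °C and with the Tn5 amounts, and Pax2, Pax6, Lhx1, Six2 and Tbx2 against all groups. Most alternatives share this selection, so a call that held is no support for these. In 458 the direction and call held, in 55 the direction held without passing the threshold, in 0 it reversed, and in 22, over 7 results, the gene did not reach the filter (Gata3 at 16 °C in 7, Six2 and Lhx6 in 5 each). The number of members called depended most on the filter and the tool. Without a filter it was 20 with the Tn5 amounts, 9 with the RNA amounts, 23 at 16 °C, 24 at 37 °C, 9 without antibody, 8 with ligation, 22 against all groups and 1 between proximal and distal cells. By construction, more genes are tested there. DESeq2, which sets its own filter, called 19, 3, 20 and 10 in the first 4 of these, 5 with ligation, 4 with H3K4me3 and 2 with H3K27me3 SET-seq. KO1 alone gave 8 of 20 tested with the Tn5 amounts (53.9% of genes), 0 of 6 with the RNA amounts (3.41%), 9 of 16 at 16 °C (59.2%), 1 of 9 without antibody (19.4%), 6 of 14 with ligation (54.1%), 2 of 10 with H3K27me3 SET-seq (33.8%) and 6 of 22 against all groups (24.1%). KO2 alone gave 0 of 6 with the RNA amounts (2.7%), 1 of 7 without antibody (10.9%) and 2 of 20 against all groups (16.6%). A level per clone and condition gave 2 with the RNA amounts, 1 without antibody and 2 with H3K27me3 SET-seq, the 300 ng libraries alone gave 3, and calling by a raw p below 0.05 plus a log2 change over 1 in size gave 2 with H3K27me3 SET-seq. In the main settings against wild type, 12.8% to 68% of genes were called. Where no share of genes stands beside a count, nothing on the members is read from it. The cause was not tested where none is given.

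Leaving out 1 library at a time gave 4 to 7 members with the Tn5 amounts, 1 to 1 with the RNA amounts, 3 to 10 at 16 °C, 3 to 4 at 37 °C, 1 to 2 without antibody, 2 to 3 with ligation, 1 to 2 with H3K4me3 and with H3K27me3 SET-seq, 6 to 8 against all groups (KO libraries only), and 0 to 0 between the clones and, by experiment, between the positions. The highest counts at 16 °C (10), with the Tn5 amounts (7), with H3K27me3 SET-seq (2) and against all groups (8) came without KO2 replicate 2. Where the share of genes is not given, nothing on the members is read from these counts or from those of the replicate block. With the replicate block, counts were 5 with the Tn5 amounts, where En2 was added, 2 with ligation, where Sox1 was lost, 1 with the RNA amounts, 4 at 16 °C, 3 at 37 °C, 2 without antibody, 2 with H3K4me3 SET-seq, 1 with H3K27me3 SET-seq, 11 against all groups and 0 between the clones. Deviations of same-numbered libraries correlated at -0.0737 between KO1 and KO2 and at -0.295 to 0.165 over 50 pairs of KO and wild type, so the numbers do not pair KO with wild type. Over 300 wild-type pairs it was -0.515 to 0.906, with 37 above 0.1, and the 3 pairs of Tn5 amounts (0.849 to 0.906) share deviations by number. Without the experiment as a replicate block, 0 members were called between positions. An alternative chosen after seeing the data, without wild-type libraries under 200000 counts, gave 2 without antibody. The median number of members detected per library over all 54 was 29.5, or 12 with at least 5 counts, 7.43 expected at the shallowest depth and 16.7 at 1000000 counts. About 1000000 counts per KO library leave most members too low to test.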
